A study of Mus musculus with 66 samples.

Results

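The comparison set testes of mice at days 3 and 6 after birth against testes at days 8 and 10, within a time course of 11 ages from day 0 to day 56. It used 24 of the 66 arrays of the series, 12 from the earlier pair of days and 12 from the later pair, chosen by the day in the labels. RNA was total RNA of whole testis from BL/6-129 mice that carried no stated treatment or allele, and each of 2 numbered samples per day was run on 3 oligonucleotide array types, called A, B and C, so that each period holds 4 samples per type. The labels do not say whether the samples of a day came from separate animals or from pools, so p-values need not measure the spread between animals. They rest on the spread between the samples of a day over all 11 ages, shared in part between genes. A value below is the deposited signal of the brightest probe set of a gene, scaled by the authors to a mean of 125, and a change is the mean of log2(signal + 16) at days 8 and 10 minus that at days 3 and 6; changes are given with their standard errors. In whole testis, fewer cells of a type and less RNA per cell cannot be told apart.

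In the newborn mouse testis, gonocytes resume division and become spermatogonia, some of which stay as stem cells while others start to differentiate under retinoic acid. The differentiating cells gain the KIT receptor, switch on STRA8, divide several times, and enter meiotic prophase as preleptotene and leptotene cells. Over the same days Sertoli cells lose fetal features, still divide and begin to prepare the blood-testis barrier, the fetal Leydig cells decline, and the connective tissue between the tubules matures.

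Between 50.5% and 63.1% of probe sets reached a signal of 50 on each array. The 2 samples of a day correlated at r = 0.799 to 0.959 over the probe sets kept, lowest for day 3 on type C, where the 3' to 5' signal ratio of the actin control probe sets was also at its highest, 2.01 in sample 2 against 1.28 in sample 1. Sample numbers did not run the same way on the 3 array types. The 3' to 5' ratio of the Gapdh controls was 0.669 to 0.765 in sample 1 and 0.803 to 0.902 in sample 2 on type A, but 0.786 to 0.909 in sample 1 and 0.652 to 0.8 in sample 2 on types B and C, at all 4 days. Transcripts of later germ cells were taken as genes with a signal of at least 2000 at day 56 and under 30 at day 0. They also set type A against types B and C at days 3 and 6, but the raised sample number changed from day 3 to day 6. Their median signal was 15.6 to 33.4 in type A day 3 sample 1, type A day 6 sample 2, and day 3 sample 2 and day 6 sample 1 of types B and C, and 6.5 to 17.4 on the other 18 arrays. In these 6 arrays the median was 0.487% to 1.03% of the day 56 level, against 0.157% to 0.441% elsewhere. Ldhc, the lactate dehydrogenase of spermatocytes and sperm, had signals of 185 and 2.1 at day 3, 1.6 and 60.6 at day 6, 3.2 and 4.8 at day 8, and 3.8 and 9.7 at day 10. Protamine Prm1, which packs sperm DNA, read 540.1 and 5.5 at day 3, 18 and 759 at day 6, 4.3 and 98.6 at day 8, and 62.5 and 87.3 at day 10. Its day 0 mean was 113.4, above the limit of 30 set here, and its other probe set changed by 0.99. The high values of Ldhc and Prm1 fell on 1 sample of day 3 and 1 of day 6. Neither gene was called (log2 change -1.15 ± 0.52, adjusted p = 0.348 and -1.02 ± 0.86, adjusted p = 0.701). Counts of called genes on most lists are therefore given also without these 6 arrays, a choice made after the values were seen; it leaves 1 sample at days 3 and 6 on each type, which the fit takes to vary like the other days. Markers of testis were present: 49 Sertoli cell markers summed to signals from 39460 to 43320 at days 3 and 6 and from 42310 to 50530 at days 8 and 10. The 12 measured markers of epididymis, fat and skeletal muscle summed to signals from 1192 to 1358 at days 3 and 6 and from 886 to 1214 at days 8 and 10.

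Days 8 and 10 differed from days 3 and 6 in 151 of 13472 genes, or 1.12%, called at an adjusted p under 0.05 in limma with signal + 16 differing by 2-fold or more. Of these, 99 genes (0.735% of those tested) were higher and 52 (0.386%) were lower at days 8 and 10. In 84 of the 99 and 41 of the 52 the 4 later samples lay wholly on one side of the 4 earlier ones. Of all genes, 6.03% showed this upward and 4.68% downward. The called genes were chosen on these same samples, so their separation is no separate support for the calls. The median change of all genes was 0.00. Of the calls, 19 higher and 7 lower rested on probe sets whose name carries a suffix letter for sequence families, shared or incomplete probes, where related sequences can add signal. Among them are Agtr2, Btnl1, Cnmd, Cracd, Egfl6, Fyb2, Lratd1, Ly6k, Meioc, Pclaf, Plagl1, Stag3 and Terb1. Without the 6 arrays the counts were 76 higher and 24 lower, of which 59 and 20 were among the genes called with all arrays. The contrast rested much on its outer days: with day 3 left out 15 genes were higher and 3 lower, with day 10 left out 27 and 13, and with day 6 left out 215 and 118.

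The steps of the called genes are described from the same values that chose these genes. The step from day 3 to day 6 also spans more days than the other steps. Of the 99 genes called higher, 49 made their largest step from day 3 to day 6, 38 from day 6 to day 8 and 12 from day 8 to day 10. Over all 99 the median steps were 0.81, 0.79 and 0.42 log2. With a pseudocount of 64 the tallies were 39, 44 and 16, so that the step from day 6 to day 8 led. Of the 52 called lower, 24, 21 and 7 did so, and the median steps over all 52 were -0.80, -0.77 and -0.34; with a pseudocount of 64 the tallies were 31, 16 and 5. All 3 steps ran in the direction of the call in 74 of 99 and 41 of 52 genes. Days outside the comparison placed these genes in the longer course: day 14 lay above the mean of days 8 and 10 in 69 of the 99 genes, but day 56 did so in 34, and in 22 it was below the mean of days 3 and 6. Of the 52 genes called lower, 36 were below the mean of days 8 and 10 at day 56, and 3 were above the mean of days 3 and 6.

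**Figure D1:**
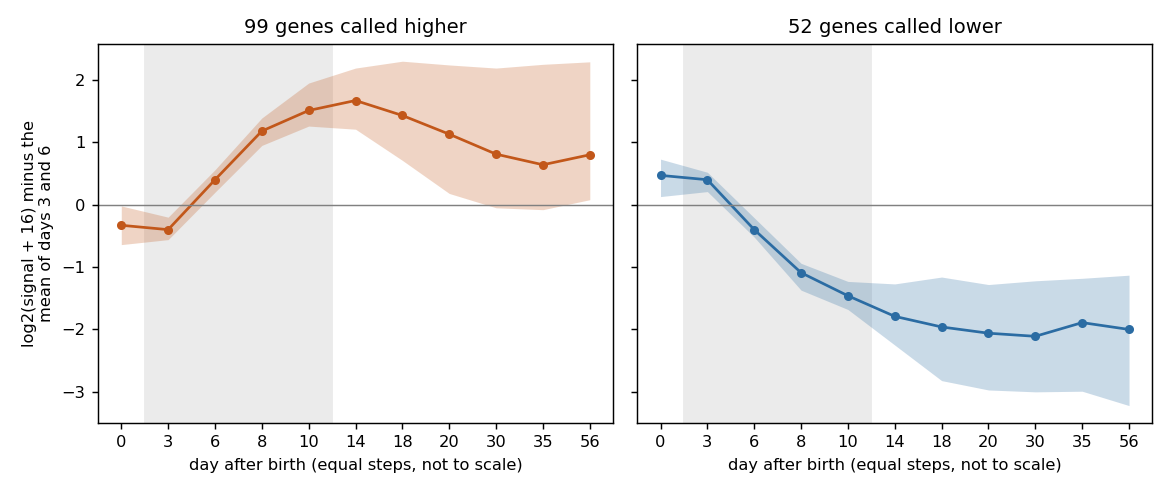
Course of the 99 genes called higher and the 52 called lower over all 11 days, as log2(signal + 16) minus each gene's mean of days 3 and 6; lines are medians over genes, bands run from the lower to the upper quartile, and grey marks the days compared, which chose the genes. The median of the higher genes peaked at day 14 (1.67) and was 0.80 at day 56, while that of the lower genes was -1.79 at day 14 and -2.0 at day 56.

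Markers on a list of differentiating spermatogonia were among the clearest risers, where 0.735% of all genes were called higher and 0.386% lower. Of 21 measured genes on that list 7 were called higher and none lower, with a median change of 0.86, and 7 were called without the 6 arrays. They were Ly6k, Dmrtb1, Stra8, Rhox13, Kit, Crabp1 and Dmrt1. Ly6k and Dmrtb1 stood far higher at later ages, with means of 9626 at day 20 and 3301 at day 35. Stra8, Rhox13, Kit, Crabp1 and Dmrt1 had fallen by day 56, to 65.05, 426, 64.6, 32.95 and 71.65. Whether spermatogonia carried the rises of Ly6k and Dmrtb1 was not tested. The list and its median also include Kitl (-0.13), a Sertoli cell ligand gene, and Sall4 (-0.22), which is on the list of undifferentiated spermatogonia too. Stra8, which retinoic acid induces and which germ cells need to enter meiosis, had signals of 34.8 and 43.2 at day 3, 168 and 109.5 at day 6, 319 and 267 at day 8, and 433 and 346 at day 10. Every sample of a later day stood above every sample of an earlier day, across all 4 days. The log2 change was 1.95 ± 0.19, adjusted p = 2.96e-05, a 3.86-fold difference on the shifted scale. Kit, the receptor that marks spermatogonia once they differentiate, had signals of 23.6 and 43 at day 3, 95.2 and 119 at day 6, 175 and 220.2 at day 8, and 188 and 178 at day 10. Its 4 later samples were all above the 4 earlier ones, but days 8 and 10 overlapped, so that no further gain was seen after day 8. Kit changed by 1.42 ± 0.24 (adjusted p = 0.00291). Dmrtb1, also known as Dmrt6, a transcription factor of the step from mitosis to meiosis, read 23.7 and 8.7 at day 3, 51.9 and 64.6 at day 6, 133 and 175 at day 8, and 174 and 256 at day 10. It was under 50 in both day 3 samples and over 100 in all 4 later ones (log2 change 2.03 ± 0.31, adjusted p = 0.00155), although its second probe set changed by 0.23. Rhox13, an X-linked homeobox gene of germ cells, had signals of 373 and 258 at day 3, 848 and 778 at day 6, 1800 and 1464 at day 8, and 2202 and 2158 at day 10. The samples rose from day to day without overlap. Rhox13 changed by 1.87 ± 0.22 (adjusted p = 0.000112).

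Ly6k, a GPI-anchored protein of germ cells, had signals of 65.9 and 161 at day 3, 97.2 and 111 at day 6, 511 and 185 at day 8, and 1605 and 1329 at day 10. It was low through day 6, unequal between the samples of day 8, and highest in both samples of day 10 (log2 change 2.53 ± 0.33, adjusted p = 0.000364), while its other probe set changed by 0.44. Crabp1, a retinoic acid binding protein of spermatogonia, was at 104 ± 62.2 at days 3 and 6 and 243 ± 59.7 at days 8 and 10 (SD, n = 4), with a log2 change of 1.23 ± 0.21, adjusted p = 0.00291. Dmrt1, which holds spermatogonia out of meiosis and is also made by Sertoli cells, was at 378 ± 135 at days 3 and 6 and 815 ± 92.8 at days 8 and 10 (SD, n = 4) and changed by 1.14 ± 0.16, adjusted p = 0.000891. With day 3 left out, the changes of Stra8 (1.21), Rhox13 (1.20), Kit (0.75), Dmrtb1 (1.41) and Crabp1 (0.58) no longer passed, while Ly6k did. Among members that were not called, the later samples of Ddx4, the germ cell RNA helicase also called Vasa, were all above the earlier ones (0.98 ± 0.21, adjusted p = 0.0178), just under 2-fold; it was called after quantile normalization (1.04) and with arrays scaled to the median (1.01), while its second probe set changed by 0.19. Dazl, an RNA-binding protein that germ cells need throughout, read 122 and 442 at day 3, 443 and 1386 at day 6, 806 and 1627 at day 8, and 974 and 1565 at day 10. Sample 2 was above sample 1 on every day, the periods overlapped, and Dazl was not called (1.42 ± 0.61, adjusted p = 0.311; second probe set 0.11). Dnmt3b, a DNA methyltransferase, read 62.7 and 64.4 at day 3, 167 and 146 at day 6, 204 and 227 at day 8, and 152 and 121 at day 10. Its highest values were at day 8, and it was not called (0.68 ± 0.26, adjusted p = 0.241).

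**Figure D2:**
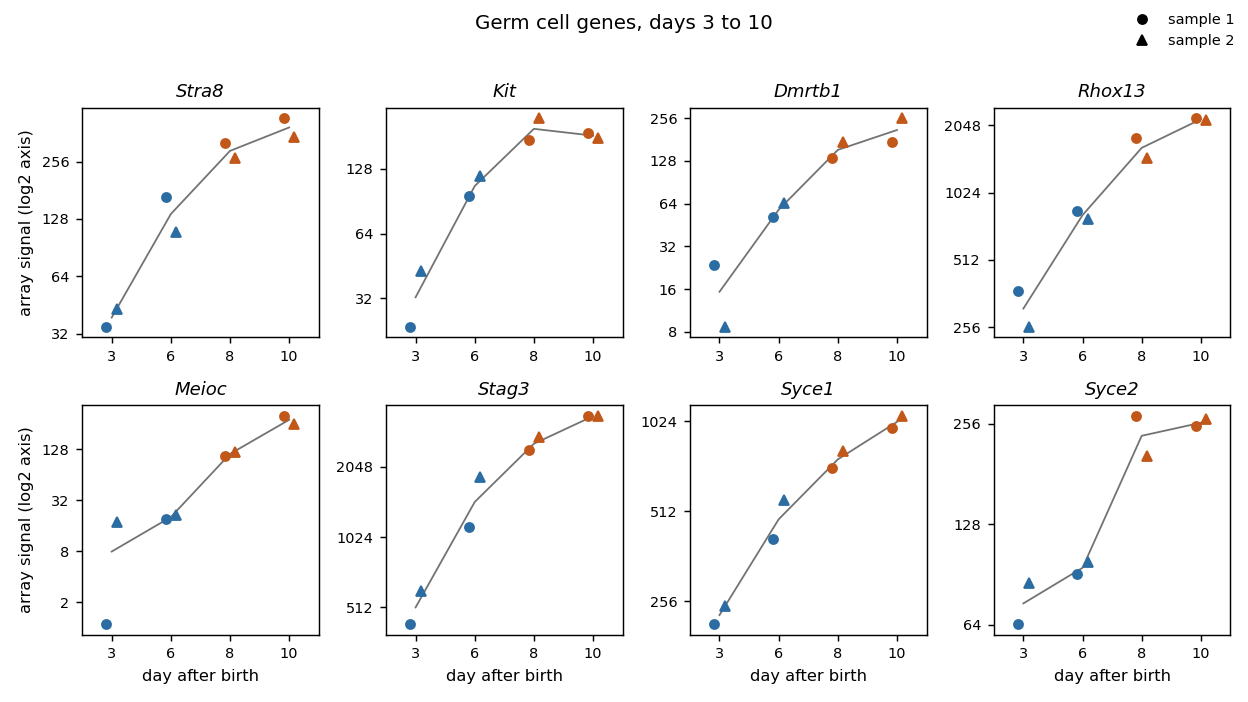
Signal of 8 germ cell genes by day, on a log2 axis that does not start at 0; circles are sample 1, triangles sample 2, blue days 3 and 6, orange days 8 and 10, and lines join the day means of log2(signal + 16), turned back to signal. Stra8, Rhox13, Stag3 and Syce1 climbed over all 4 days, Kit levelled off at day 8, and Meioc stayed at or under 21.6 until day 6.

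No gene of the stem cell list passed, against 1.12% of all genes, a share at which a list of this length can hold none. None of 23 measured genes of undifferentiated spermatogonia was called, with or without the 6 arrays, and their median change was 0.00. Gfra1, the receptor for GDNF on stem spermatogonia, had signals of 139 and 172 at day 3, 80 and 94 at day 6, 92.4 and 82.7 at day 8, and 50.5 and 45.2 at day 10, lowest in both day 10 samples, but days 6 and 8 overlapped. Gfra1 changed by -0.70 ± 0.26 (adjusted p = 0.207), the smallest fall of its 3 probe sets, which reached -1.20. Taf4b, a transcription cofactor of the stem cell pool, was at 84.2 ± 30.8 at days 3 and 6 and 161 ± 48 at days 8 and 10 (SD, n = 4) and changed by 0.84 ± 0.28, adjusted p = 0.142. Zbtb16, or PLZF, read 385 and 169 at day 3, 633 and 413 at day 6, 439 and 469 at day 8, and 576 and 349.7 at day 10, with samples of day 3 that differed by more than the periods did. Zbtb16 changed by 0.30 ± 0.37 (adjusted p = 0.812). Id4 changed by -0.21 ± 0.18, adjusted p = 0.713 and Pou5f1 by 0.16 ± 0.41, adjusted p = 0.932, with signals of at most 63.2 and 65.9. Among 62 ligands and receptors of the spermatogonial niche, 1 was higher (Kit) and 1 lower, against 0.735% and 0.386% of all genes. The median was -0.23. The lower one was Smad6, an inhibitor of BMP signalling, with 118 and 154 at day 3, 92.6 and 150.5 at day 6, 43.3 and 60.8 at day 8, and 42.9 and 58.3 at day 10; all later samples were below all earlier ones. Smad6 changed by -1.09 ± 0.19 (adjusted p = 0.00374). The Sertoli cell ligand genes Gdnf (-0.46 ± 0.19, adjusted p = 0.285) and Kitl (-0.13 ± 0.33, adjusted p = 0.933) were not called, and in each 1 sample stood apart.

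The X chromosome held 21 of the 99 genes called higher (21.2%) and 5 of the 52 called lower (9.62%), against 414 of all 13472 tested (3.07%). Of the 21, 4 rested on suffixed probe sets. Without the 6 arrays the X chromosome held 13 of 76 genes called higher and 2 of 24 called lower. Of all genes, 0.735% were called higher. Of 12 measured genes on a list of X and Y genes of spermatogonia, 4 were called higher, Rhox13, Esx1, Uba1y and Usp26. None was lower, and the median was 0.38. The count of 12 and the median include Sycp3, which lies on chromosome 10 and was not called. Uba1y, the Y-linked ubiquitin-activating enzyme of germ cells, had signals of 77.8 and 84.5 at day 3, 156 and 162 at day 6, 261 and 248 at day 8, and 274 and 268 at day 10. The samples of each day lay close together, and days 8 and 10 were alike. Uba1y changed by 1.10 ± 0.14 (adjusted p = 0.000325). Esx1, an X-linked homeobox gene, read 15.6 and 12 at day 3, 24.1 and 59 at day 6, 76 and 94.9 at day 8, and 73.4 and 99.5 at day 10, with all later samples above the earlier ones. Esx1 changed by 1.33 ± 0.24 (adjusted p = 0.00623). Usp26, a germ cell deubiquitinase, was at 446 ± 190.1 at days 3 and 6 and 858 ± 106 at days 8 and 10 (SD, n = 4) and changed by 1.00 ± 0.20, adjusted p = 0.0106; without the 6 arrays its change was 0.84 and did not pass.

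A limited set of meiotic genes had already risen, where 0.735% of all genes were called higher. Of 29 measured genes of early meiotic prophase, 5 were called higher, none was lower, 24 changed by more than 0, and the median was 0.62; the same number, 5, was called without the 6 arrays. The 5 were Meioc, Terb1, Stag3, Syce2 and Syce1. Meioc, whose protein works with YTHDC2 to hold cells in the meiotic programme, had signals of 1.1 and 17.5 at day 3, 19 and 21.6 at day 6, 107 and 119 at day 8, and 317 and 256 at day 10. It was at or under 21.6 in all 4 samples of days 3 and 6, and day 10 stood above day 8 (log2 change 2.74 ± 0.35, adjusted p = 0.000276, 6.68-fold on the shifted scale). Terb1, which ties telomeres to the nuclear envelope in prophase, read 10 and 95.5 at day 3, 46.4 and 9.5 at day 6, 127 and 142 at day 8, and 254 and 339 at day 10. Its 2 higher early values were on arrays with the raised later germ cell transcripts, all later samples were higher still, and a second probe set changed by 0.88, which did not pass on its own. Terb1 changed by 2.22 ± 0.40 (adjusted p = 0.00521). Without those arrays the change was 3.07. Stag3, a subunit of the meiotic cohesin ring, had signals of 432 and 603 at day 3, 1132 and 1854 at day 6, 2411 and 2754 at day 8, and 3374 and 3395 at day 10. It was already at 432 or more at day 3 and rose on each day without overlap. Stag3 changed by 1.76 ± 0.25 (adjusted p = 0.000868). Syce1 and Syce2 encode proteins of the central element of the synaptonemal complex. Syce1 read 215 and 247 at day 3, 415 and 559 at day 6, 716 and 816 at day 8, and 974 and 1069 at day 10, a steady climb in both samples. Syce1 changed by 1.36 ± 0.16 (adjusted p = 0.000139). Syce2 read 64.3 and 85.4 at day 3, 91.1 and 98.8 at day 6, 270.2 and 205 at day 8, and 252 and 264 at day 10, low on both early days and level on both later ones. Syce2 changed by 1.39 ± 0.18 (adjusted p = 0.000364). With day 3 left out, Meioc and Syce2 were still called, whereas Stag3 (1.02), Syce1 (0.85) and Terb1 (2.43) were not.

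Other genes of the same stage were not called at this number of arrays. Sycp1, the transverse filament of the synaptonemal complex, read 32.3 and 25.6 at day 3, 51.9 and 91 at day 6, 159 and 138 at day 8, and 266 and 96.3 at day 10, all later samples above the earlier ones, at 1.47 ± 0.38, adjusted p = 0.0543; it passed after quantile normalization (1.47) and median scaling (1.48). Rec8, another cohesin subunit, was at 568 ± 144 at days 3 and 6 and 919 ± 137 at days 8 and 10 (SD, n = 4), a change of 0.70 ± 0.15, adjusted p = 0.0163 that was under 2-fold. Genes of recombination were not called: Spo11, which makes the double-strand breaks, changed by 0.39 ± 0.21, adjusted p = 0.45, Dmc1, the strand exchange protein, by 0.24 ± 0.23, adjusted p = 0.729, and Msh4, a crossover protein, by 0.33 ± 0.26, adjusted p = 0.67. Sycp3, an axis protein, was at most 67.3 in the 8 samples, highest at day 6, and changed by -0.21 ± 0.42, adjusted p = 0.904. Its only probe set had day means of 10.1 to 64.3 at all 11 ages with no lasting rise, so it says little of this gene. None of 33 measured genes of pachytene spermatocytes and none of 32 of spermatids was called, against 1.12% of all genes. Their medians were -0.10 and -0.23. The 6 early arrays described above stood high for such transcripts, and their part in the negative medians was not tested. The summed signal of the spermatid list ran from 1600 to 2713 at days 3 and 6 and from 1354 to 1456 at days 8 and 10. Hspa2, a chaperone that pachytene cells make in quantity, changed by 0.33 ± 0.20, adjusted p = 0.541.

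The promoters of the risers were searched for motifs of factors known at this transition. RefSeq promoter windows (GRCm38.p6, from 250 bases before to 50 after the gene start) were held for 85 of the 99 higher genes (107 windows), 38 of the 52 lower (45) and 10769 of all tested genes (13718). CNCCTCAG, the motif known for STRA8, searched on both strands, was in 15.9% of windows of higher genes, 11.1% of lower and 9.10% of all. The E-box CACGTG was in 12.1%, 8.89% and 9.32%. The E2F motif GCGGGAA was in 9.35%, 6.67% and 7.38%. The NR5A1 motif TCAAGGTCA was in 0.935%, 0% and 0.328%. A match is a description of these letters and not of binding. The windows printed here show 1 match each in capitals, though the lower-case letters can hold other matches, for 3 meiotic risers and for the Sertoli cell riser Cldn11, upstream bases only, to show where such letters lie ahead of genes called higher. The Syce2 match (CNCCTCAG on the minus strand, at chr8:84872159-84872257, plus strand gene) overlaps a GCGGGAA match. The others are Stag3 with CACGTG (chr5:138280279-138280404), Meioc with GCGGGAA (chr11:102665335-102665423) and Cldn11 with CNCCTCAG (chr3:31149745-31149872), all on the plus strand.
Syce2: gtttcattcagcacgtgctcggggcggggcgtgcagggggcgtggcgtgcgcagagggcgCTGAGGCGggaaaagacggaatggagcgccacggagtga
Stag3: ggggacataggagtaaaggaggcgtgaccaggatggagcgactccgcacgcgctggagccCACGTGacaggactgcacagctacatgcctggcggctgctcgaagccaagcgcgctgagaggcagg
Meioc: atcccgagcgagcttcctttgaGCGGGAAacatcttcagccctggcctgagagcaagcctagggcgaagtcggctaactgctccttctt
Cldn11: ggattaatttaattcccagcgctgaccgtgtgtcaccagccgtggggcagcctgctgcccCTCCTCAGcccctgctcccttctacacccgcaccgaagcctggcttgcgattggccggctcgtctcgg

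Germ granule and piRNA genes moved in part, where 0.735% of all genes were called higher. Of 18 measured, 2 were called higher, none lower, 16 changed by more than 0, and the median was 0.45; neither was called without the 6 arrays, with changes of 1.09 for Piwil2 and 1.10 for Tdrkh. Piwil2, or MILI, which binds piRNAs in spermatogonia, had signals of 101 and 57.8 at day 3, 218 and 267 at day 6, 444 and 339 at day 8, and 425 and 298 at day 10. The later samples were all above the earlier ones, and day 10 was no higher than day 8. Piwil2 changed by 1.33 ± 0.21 (adjusted p = 0.002). Tdrkh, a tudor protein that helps trim piRNAs, read 122 and 153 at day 3, 272 and 372 at day 6, 555 and 464 at day 8, and 371 and 552 at day 10; day 6 sample 2 and day 10 sample 1 were level. Tdrkh changed by 1.13 ± 0.21 (adjusted p = 0.00612).

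Within the retinoid pathway the risers were a carrier, a binding protein and a target, where 0.735% of all genes were called higher. Of 26 measured genes, 3 were called higher (Stra8, Rbp4 and Crabp1), none was lower, and the median was -0.07; 3 were called without the 6 arrays. Rbp4, the carrier of retinol, had signals of 27.3 and 5.7 at day 3, 71 and 35.6 at day 6, 103 and 130.5 at day 8, and 183 and 167 at day 10, with all later samples above the earlier ones. Rbp4 changed by 1.81 ± 0.29 (adjusted p = 0.00217). Aldh1a2, which makes retinoic acid in germ cells, read 169 and 116 at day 3, 214 and 168 at day 6, 169 and 177 at day 8, and 162 and 245 at day 10, with overlap. Aldh1a2 changed by 0.17 ± 0.22 (adjusted p = 0.833).

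Sertoli cell markers moved in both directions, where 0.735% of all genes were called higher and 0.386% lower. Of 49 measured, 6 were called higher, 3 lower and 40 neither, and the median was -0.14. Without the 6 arrays Tsx, Krt8 and Lhx9 no longer passed. The risers were Cldn11, Gata1, Rhox5, Drd4, Tsx and Dmrt1. Cldn11, a claudin of the blood-testis barrier, had signals of 109 and 134 at day 3, 341 and 351 at day 6, 685 and 526 at day 8, and 746 and 978 at day 10. It was lowest at day 3, intermediate at day 6 and highest at the later days, without overlap between periods. Cldn11 changed by 1.72 ± 0.17 (adjusted p = 2.96e-05). Gata1, a transcription factor that Sertoli cells gain during the first wave, read 25.5 and 7.1 at day 3, 79.1 and 70.9 at day 6, 133 and 82.7 at day 8, and 205 and 200.3 at day 10; day 8 sample 2 stood just above day 6 and day 10 was highest (log2 change 1.62 ± 0.21, adjusted p = 0.000397), while its other probe set changed by 0.28. GATA1 also marks red blood cell precursors. None of the other 11 measured erythroid genes was called, Rhd, a red cell antigen, changed by 0.76 ± 0.19 (adjusted p = 0.0476), and the part of such cells in the change of Gata1 was not tested. The summed signal of the erythroid list ran from 4096 to 7302 at days 3 and 6 and from 3875 to 6040 at days 8 and 10. Rhox5, an androgen-responsive X-linked homeobox gene, read 66.4 and 55.8 at day 3, 48.6 and 70.4 at day 6, 167 and 99.6 at day 8, and 267 and 279 at day 10. It was flat over days 3 and 6 and stood higher at both later days. Rhox5 changed by 1.44 ± 0.19 (adjusted p = 0.000419). Drd4, a dopamine receptor, was at 117 ± 43.4 at days 3 and 6 and 311 ± 103 at days 8 and 10 (SD, n = 4) and changed by 1.30 ± 0.17, adjusted p = 0.000413. Tsx, an X-linked gene, read 16.4 to 19.3 at days 3 and 6, 44 and 27.9 at day 8, and 136 and 69.4 at day 10; the early samples were all under 20 and day 10 was unequal between samples. Tsx changed by 1.17 ± 0.22 (adjusted p = 0.0079).

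The Sertoli genes called lower were Hsd17b1, Krt8 and Lhx9. Hsd17b1, a hydroxysteroid dehydrogenase that acts on estrogens and androgens, had signals of 699 and 619.5 at day 3, 300.4 and 263 at day 6, 171 and 131 at day 8, and 77.9 and 40.7 at day 10. It fell on each day without overlap (log2 change -2.02 ± 0.24, adjusted p = 0.00014, 4.07-fold). Krt8, a keratin of immature Sertoli cells, read 94.5 and 99 at day 3, 19.5 and 62.7 at day 6, 15.3 and 12.9 at day 8, and 10.5 and 16.1 at day 10; day 6 sample 1 was close to the later samples, and the call was lost without the 6 arrays. Krt8 changed by -1.38 ± 0.29 (adjusted p = 0.0142). Lhx9, a homeobox gene of the early gonad, was at 65.5 ± 26.5 at days 3 and 6 and 20.2 ± 4.78 at days 8 and 10 (SD, n = 4). Lhx9 changed by -1.12 ± 0.19 (adjusted p = 0.0032), and its call was lost without the 6 arrays. Other known Sertoli cell genes were not called. Sox9, a transcription factor of Sertoli cell fate, changed by -0.27 ± 0.19, adjusted p = 0.596, Fshr, the receptor for FSH, by -0.40 ± 0.12, adjusted p = 0.109, Inha by -0.30 ± 0.15, adjusted p = 0.4, Inhbb by -0.43 ± 0.27, adjusted p = 0.56, and Clu, or clusterin, by 0.52 ± 0.17, adjusted p = 0.155. Amh, anti-Müllerian hormone, read 42.5 and 223 at day 3, 22.9 and 88.1 at day 6, 20.2 and 45.8 at day 8, and 15.3 and 17.3 at day 10. Sample 2 was above sample 1 on each day, the periods overlapped, and Amh was not called (-1.15 ± 0.37, adjusted p = 0.134), but it passed without the 6 arrays, at -1.30 ± 0.28 (adjusted p = 0.042).

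**Figure D3:**
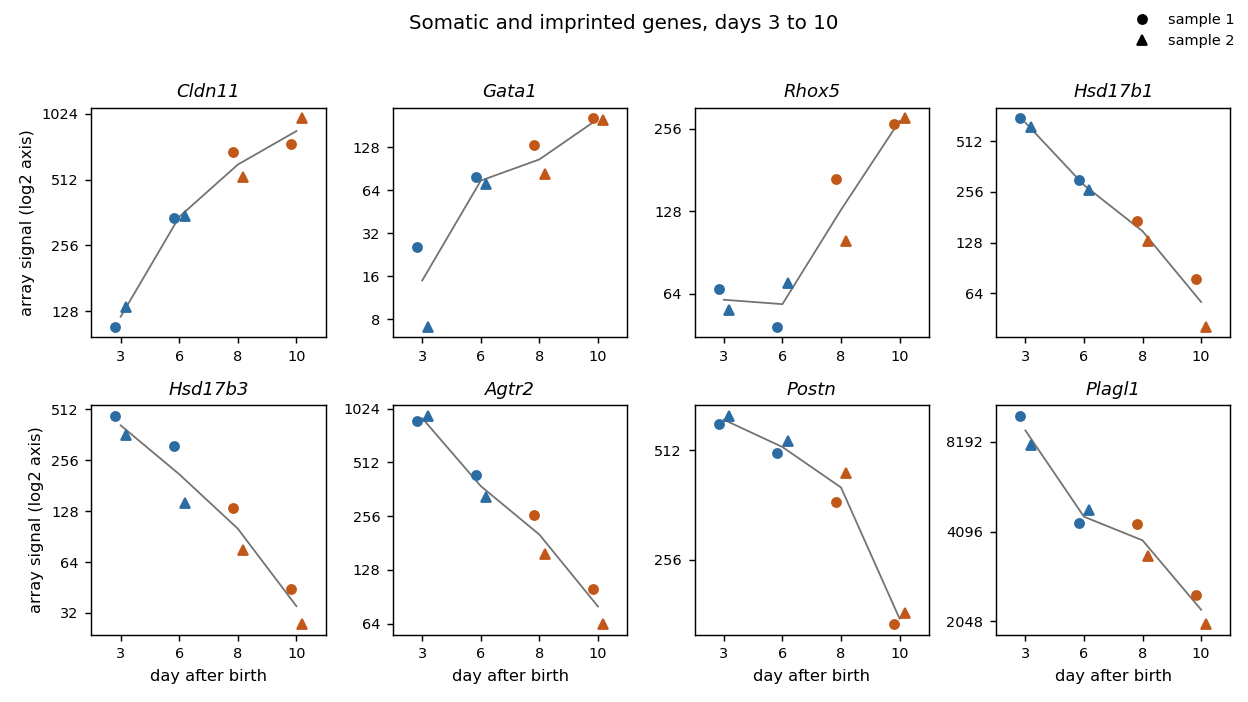
Signal of 8 somatic and imprinted genes by day, drawn as in the plot of germ cell genes, on log2 axes that do not start at 0. Cldn11 and Gata1 rose from day 3, Rhox5 only after day 6, and Hsd17b1, Hsd17b3 and Agtr2 fell on each day.

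Leydig cell genes called here were all lower, where 0.386% of all genes were called lower. Of 30 measured genes none was called higher and 2 lower, Agtr2 and Hsd17b3, also without the 6 arrays, with a median of -0.17. Hsd17b3, the enzyme that turns androstenedione into testosterone and that in the fetal mouse testis is made by Sertoli cells, had signals of 469 and 362 at day 3, 311 and 143 at day 6, 134 and 75 at day 8, and 44.1 and 27.4 at day 10. It was lower on each later day, and all later samples were below all earlier ones. Hsd17b3 changed by -2.02 ± 0.23 (adjusted p = 0.000112). Agtr2, the angiotensin receptor common in fetal tissues, read 879 and 934 at day 3, 436 and 326 at day 6, 259 and 156 at day 8, and 99.5 and 63.4 at day 10, also without overlap (log2 change -2.06 ± 0.26, adjusted p = 0.000262), and its second probe set changed by -2.17. Star, which brings cholesterol into mitochondria, changed by -0.20 ± 0.37, adjusted p = 0.891, the side-chain cleavage enzyme Cyp11a1 by -0.15 ± 0.21, adjusted p = 0.846, Cyp17a1 by 0.16 ± 0.22, adjusted p = 0.837 and Hsd3b1 by -0.50 ± 0.27, adjusted p = 0.46. Insl3, a Leydig cell hormone, was at most 52.4 in the 8 samples and changed by 0.03 ± 0.23, adjusted p = 0.985. Its probe set had day means of 37.4 to 62.6 at all 11 ages, so its value here says little of this gene. None of 22 measured genes of cholesterol synthesis was called (median 0.03), against 1.12% of all genes. The largest change was that of Insig2, at 0.74 ± 0.21, adjusted p = 0.0861.

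Matrix genes that passed were all lower, where 0.386% of all genes were called lower. Of 57 measured genes of the extracellular matrix, 4 were called lower and none higher, 8 changed by more than 0, and the median was -0.31; 3 were called without the 6 arrays. Fbln2, a fibulin, had signals of 231 and 356 at day 3, 165 and 280.3 at day 6, 89.9 and 145 at day 8, and 72.9 and 74.2 at day 10, with all later samples below the earlier ones. Fbln2 changed by -1.29 ± 0.21 (adjusted p = 0.00259). Vcan, or versican, read 199 and 221 at day 3, 104 and 107 at day 6, 70.5 and 83.5 at day 8, and 40.1 and 45.9 at day 10, falling on each day. Vcan changed by -1.16 ± 0.19 (adjusted p = 0.00271). Postn, or periostin, read 606 and 636 at day 3, 503 and 542 at day 6, 369.8 and 442 at day 8, and 170.0 and 182 at day 10; the largest drop was between days 8 and 10. Postn changed by -1.04 ± 0.16 (adjusted p = 0.00162). Lox, which crosslinks collagen, was at 194 ± 73.1 at days 3 and 6 and 85 ± 19.7 at days 8 and 10 (SD, n = 4) and sat at the fold threshold (-1.0 ± 0.24, adjusted p = 0.0321); it was called in 12 of 27 alternatives. Col1a1, a chain of type I collagen, was higher in sample 2 than in sample 1 on all days and was not called (-0.42 ± 0.49, adjusted p = 0.803).

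Of 25 measured imprinted and fetal growth genes, 2 were called lower and none higher, with a median of -0.53, the lowest of the 25 lists; 1 was called without the 6 arrays. Of all genes, 0.386% were called lower. Plagl1, an imprinted zinc finger regulator of a network of growth genes, had signals of 9999 and 7980 at day 3, 4368 and 4828 at day 6, 4326 and 3384 at day 8, and 2504 and 2003 at day 10. It dropped between days 3 and 6 and again by day 10. Plagl1 changed by -1.13 ± 0.17 (adjusted p = 0.0011). Cdkn1c, the imprinted cyclin-dependent kinase inhibitor p57, read 490.4 and 444 at day 3, 255 and 290.4 at day 6, 143 and 219 at day 8, and 115 and 172 at day 10, without overlap; without the 6 arrays its change of -1.02 did not pass. Cdkn1c changed by -1.10 ± 0.22 (adjusted p = 0.0121). Igf2, the fetal growth factor, was at 2359 ± 591 at days 3 and 6 and 1254 ± 399 at days 8 and 10 (SD, n = 4); its change of -0.92 ± 0.22, adjusted p = 0.0389 was under 2-fold. Dlk1, a membrane protein of fetal stroma, changed by -0.92 ± 0.24, adjusted p = 0.0571.

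With 1.12% of all genes called, each of the next short lists can hold none. None of 21 peritubular myoid and smooth muscle genes was called (median -0.10), and 9 changed by more than 0. The largest changes were falls under 2-fold, of Hhip (-0.72 ± 0.18, adjusted p = 0.0421) and Cspg4 (-0.66 ± 0.29, adjusted p = 0.307). Acta2 changed by 0.01 ± 0.26, adjusted p = 0.994, and Myh11 by 0.02 ± 0.17, adjusted p = 0.987, with another Myh11 probe set at -0.74. None of 19 endothelial genes was called (median -0.15), but Sox18, a transcription factor of vessels, read 249.8 and 299 at day 3, 197 and 234 at day 6, 146 and 157 at day 8, and 106 and 146 at day 10, all later samples lower, at -0.75 ± 0.13, adjusted p = 0.00505, under 2-fold. None of 20 macrophage genes was called (median 0.00), and their summed signal ran from 2267 to 2827 at days 3 and 6 and from 2186 to 2588 at days 8 and 10. None of 12 markers of epididymis, fat and skeletal muscle was called (median -0.21).

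Genes on the lists of mitosis and DNA replication were not called, against 1.12% of all genes. Of 47 measured genes of mitosis none was called, the median was -0.16, and 14 changed by more than 0. In 10 of the 47 all later samples lay below all earlier ones, against 4.68% of all genes. In 1 they lay above, against 6.03% of all genes. Ccna2, cyclin A2, had signals of 435 and 447 at day 3, 363 and 405 at day 6, 249 and 262 at day 8, and 240.2 and 203 at day 10, all later samples lower, by less than 2-fold. Ccna2 changed by -0.75 ± 0.14 (adjusted p = 0.0079). Ncaph, a condensin subunit, changed by -0.77 ± 0.18, adjusted p = 0.0339. Mki67, the source of the Ki-67 antigen, changed by -0.42 ± 0.23, adjusted p = 0.464 and Top2a by -0.11 ± 0.18, adjusted p = 0.871, with overlap. None of 43 DNA replication genes was called (median -0.02), and Pcna changed by -0.02 ± 0.17, adjusted p = 0.983. Pclaf, a partner of PCNA in replication that was not on that list, was called lower, with 647 and 644 at day 3, 390.3 and 476 at day 6, 134 and 192 at day 8, and 120.2 and 221 at day 10; days 8 and 10 were alike and well under days 3 and 6. Pclaf changed by -1.61 ± 0.27 (adjusted p = 0.00248). Of 22 cyclins and inhibitors of G1, Cdkn1c alone was called (median -0.12), and none without the 6 arrays. Ccnd1, cyclin D1, was at 88 ± 10.6 at days 3 and 6 and 172 ± 24.5 at days 8 and 10 (SD, n = 4), without overlap, and changed by 0.85 ± 0.22, adjusted p = 0.0599. Ccnd2, cyclin D2, was higher in sample 2 than in sample 1 on every day and changed by -1.27 ± 0.59, adjusted p = 0.359.

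**Figure D4:**
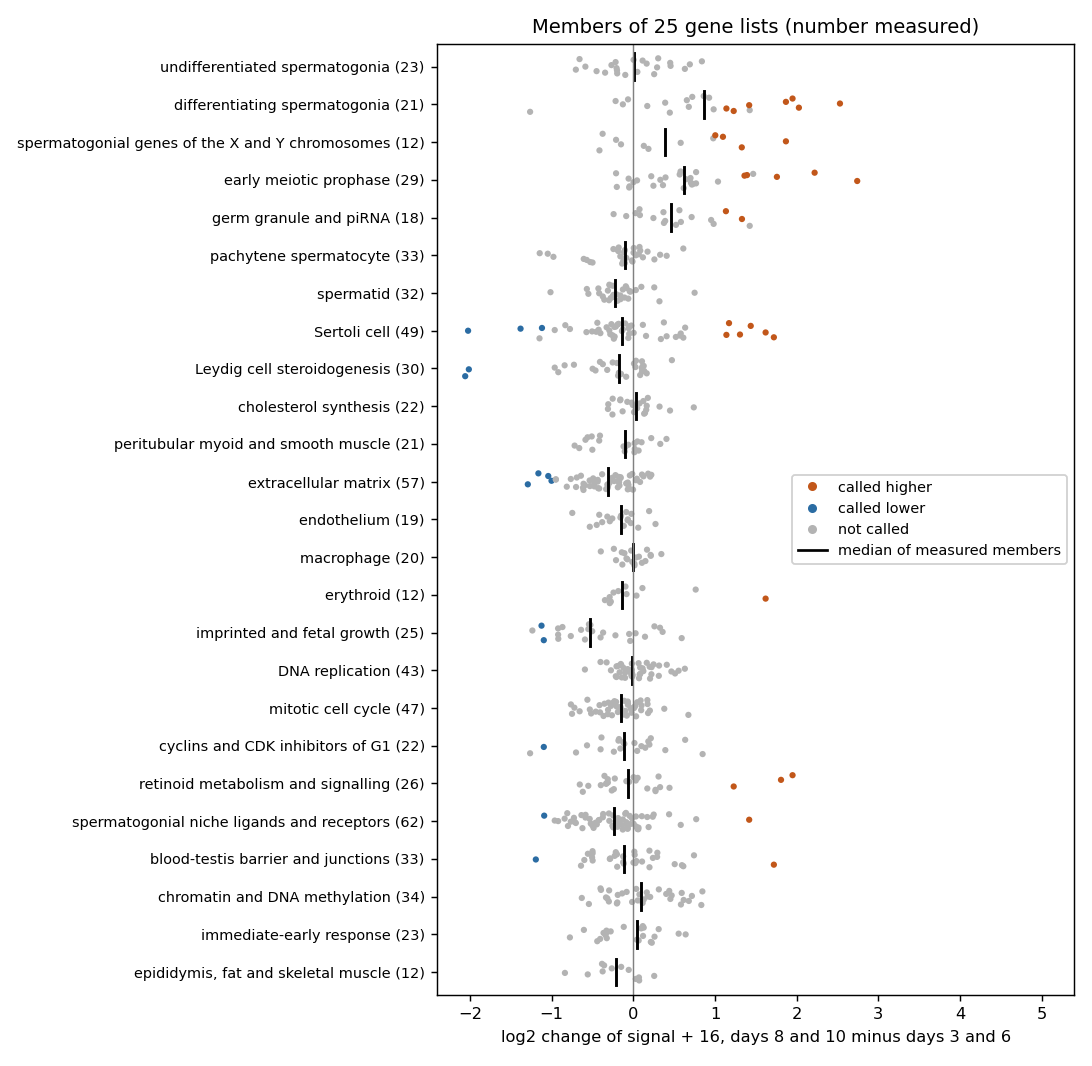
Change of every measured member of 25 gene lists, as log2 change of signal + 16 between days 3 and 6 and days 8 and 10; each point is a gene, orange and blue mark genes called higher and lower, and black bars are list medians. The medians ran from -0.53 (imprinted and fetal growth) to 0.86 (differentiating spermatogonia).

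On the remaining lists the genes that passed were junction genes, where 1.12% of all genes were called. Of 33 junction genes, Cldn11 was called higher and Dsp, or desmoplakin, lower (median -0.12). Dsp read 139 and 226 at day 3, 50 and 54.6 at day 6, 61.1 and 47.9 at day 8, and 21 and 18.9 at day 10; it dropped between days 3 and 6 and again by day 10, and days 6 and 8 overlapped. Dsp changed by -1.20 ± 0.18 (adjusted p = 0.00141). None of 34 genes of chromatin and DNA methylation was called (median 0.09), with the largest changes in Suv39h2, a histone methyltransferase (0.84 ± 0.31, adjusted p = 0.219), and Baz1a (0.83 ± 0.23, adjusted p = 0.0689), and Dnmt3l changed by 0.05 ± 0.18, adjusted p = 0.952. None of 23 immediate-early genes was called (median 0.04).

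The largest rises also included genes on none of the lists. Ugt8a, which makes galactosylceramide, had signals of 7.5 and 5.8 at day 3, 50.1 and 33.5 at day 6, 119.7 and 96.3 at day 8, and 390.3 and 279.5 at day 10. It rose on each day without overlap, from under 10 at day 3 (log2 change 2.52 ± 0.33, adjusted p = 0.000378); its other probe sets changed by as little as 0.25. Lratd1 read 216 and 157 at day 3, 208 and 292 at day 6, 669.5 and 793 at day 8, and 1209 and 1022 at day 10, level over the early days and higher from day 8. Other Lratd1 probe sets changed by as little as 0.75, and the call was lost without suffixed probe sets. Lratd1 changed by 2.00 ± 0.19 (adjusted p = 1.79e-05). Dpep3, a membrane dipeptidase of the testis, read 42.8 and 27.7 at day 3, 33.8 and 27.5 at day 6, 108 and 102 at day 8, and 222 and 211 at day 10, flat until day 6 and then rising (log2 change 1.79 ± 0.14, adjusted p = 2.49e-06), although another of its 3 probe sets changed by -0.03. Hic2, a transcriptional repressor, read 33.2 and 36.5 at day 3, 185 and 44.2 at day 6, 306 and 187 at day 8, and 319 and 235 at day 10, with day 6 sample 1 apart from the other early samples. Hic2 changed by 1.87 ± 0.34 (adjusted p = 0.00501). Fyb2 changed by 2.01 ± 0.38, adjusted p = 0.00784, Pcsk1n, a neuroendocrine propeptide, by 1.90 ± 0.39, adjusted p = 0.0141 and Eaf2, an elongation factor partner, by 1.74 ± 0.33, adjusted p = 0.00794; none of these 3 passed without the 6 arrays.

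The largest falls were led by Lgals7, the epithelial lectin galectin-7, with 372 and 326 at day 3, 173 and 83 at day 6, 22.2 and 52 at day 8, and 11.3 and 11.1 at day 10. The later samples were all below the earlier ones, and day 10 was lowest (log2 change -2.58 ± 0.26, adjusted p = 3.55e-05, 5.99-fold). Islr2 read 1589 and 789 at day 3, 213 and 592 at day 6, 129 and 96.3 at day 8, and 85.8 and 108 at day 10; the early samples differed widely but all stood above the later ones (log2 change -2.44 ± 0.37, adjusted p = 0.0011), and its second probe set changed by -0.46. Cnmd, or chondromodulin, a matrix glycoprotein, read 480.3 and 452 at day 3, 247 and 423 at day 6, 154 and 129.6 at day 8, and 37.7 and 31.4 at day 10, with the lowest values at day 10. Cnmd changed by -2.18 ± 0.22 (adjusted p = 2.96e-05). Adcyap1r1, the receptor for the peptide PACAP, changed by -1.75 ± 0.24, adjusted p = 0.000414, with 1 of 4 probe sets at 0.13. Other falls were those of Btnl1 at -1.82 ± 0.33, adjusted p = 0.00504, Cracd at -1.50 ± 0.25, adjusted p = 0.0026, Emilin3, a matrix glycoprotein, at -1.49 ± 0.29, adjusted p = 0.00889, and Egfl6 at -1.39 ± 0.24, adjusted p = 0.0038. The 5 probe sets of Cracd ran from -1.50 to 0.01, and its call was lost without suffixed probe sets and with the mean of all probe sets. Btnl1, Emilin3 and Egfl6 were not called without the 6 arrays. Tpsab1, a tryptase of mast cells, read 74.4 and 69.4 at day 3, 47.6 and 71.6 at day 6, 4.8 and 47.1 at day 8, and 6.4 and 8.2 at day 10; day 8 sample 2 was level with the lowest early sample, and the call held in 14 of 26 alternatives. Tpsab1 changed by -1.48 ± 0.31 (adjusted p = 0.0155).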

How the data were processed

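Total RNA of whole testis was measured on 3 oligonucleotide array types. The deposited values are signal intensities, scaled by the authors to a mean of 125 per array, per the labels; the software and background correction are not given in the sources used here. Of 36899 probe sets, those with a signal of at least 50 on 2 of 22 arrays of their type were kept, log2(signal + 16) was taken, and the brightest probe set stood for a gene, which left 13472 genes. Each type was fitted on 11 day means with limma 3.58.1 (R 4.3.3, eBayes with trend), and p-values were adjusted by Benjamini-Hochberg over all genes. The ± beside a log2 change is its standard error, and ± beside a mean signal is an SD. The script was tested on simulated data. The members and lists were chosen with earlier results of these data known. Named genes were the largest calls without overlap, leaving out clone names, the leading members of each list, and textbook genes. Dmrt1, Drd4, Lhx9, Rhd and Sall4 fall outside that rule and were named after their values were seen. Sample numbers paired the samples within a type: the difference of sample 1 and sample 2 correlated between days at r = 0.116 to 0.388, over 0.1 in 18 of 18 pairs of days. Alternatives changed the pseudocount, filter, scaling, probe set, arrays fitted, days, samples and block. The number of arrays limits the precision.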

Additional observations from a re-analysis of the deposited data

Results flagged for a closer look

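In 11 of 224 groups of 4 samples, 1 sample lay far from the other 3; chance alone gives about 1 in 20 groups, and each group pools 2 days. At days 3 and 6, Baz1a was at 114.5 in day 3 sample 1 (others 164.4 to 176.8). In day 6 sample 1, Hic2 was at 184.6 (33.2 to 44.2), Kitl at 946.2 (685.2 to 717.3), Star at 249.4 (358.2 to 366.4) and Tpsab1 at 47.6 (69.4 to 74.4). In day 3 sample 2, Ldhal6b, a lactate dehydrogenase gene on the list of pachytene spermatocytes, was at 313.5 (4.3 to 11.3), on an array with raised later germ cell transcripts. Meioc was at 1.1 in day 3 sample 1 (17.5 to 21.6). At days 8 and 10, day 8 sample 2 stood apart for Clu at 3051 (3770 to 3928), Gdnf at 139.2 (84.4 to 88.4) and Tpsab1 at 47.1 (4.8 to 8.2), and day 10 sample 2 for Pola1 at 52.4 (65.9 to 68.5).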

How the results depend on the processing

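Against 99 genes called higher and 52 lower, a pseudocount of 64 gave 45 and 21, a fit of only the 8 compared arrays on 2 period means 56 and 31 (100 and 52 for the same arrays on 4 day means), leaving out day 3 gave 15 and 3, day 6 215 and 118, and day 10 27 and 13. Leaving out the 6 arrays with later germ cell transcripts, added after seeing the data, gave 24 lower. With the sample number as replicate block, 110 and 62 were called, and no call of the 50 named called genes was lost. Leaving out 1 sample at a time gave 72 to 98 higher and 41 to 53 lower. Of the 50, 5 were called in every one of up to 27 alternatives, and 0 reversed; 9 were called with day 3 left out and 20 with day 10 left out. The cause was not tested. Suffixed probe sets could not be left out for genes that have no other, such as Meioc, so those have fewer alternatives. Early signals of Meioc and Tsx lay near the floor of the arrays, where log2(signal + 16) understates a change.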

Other observations

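Some of the largest changes belonged to genes outside the naming rule, chosen here after their values were seen. The X-linked loci 1700018G05Rik, Gm9112 and 1700011M02Rik, known only by clone or locus names and read on suffixed probe sets that related copies can share, were called higher by 3.82, 3.16 and 2.43 on the log2 scale. Amhr2, the receptor for anti-Müllerian hormone, was called higher by 1.00, at the fold threshold, on a suffixed probe set and with overlap between an early sample at 9368 and a late one at 9234. Mcpt2, a mast cell protease, was called lower, at -1.22.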
